A study of Mus musculus with 9 samples.

Results

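Trp63 and 7 genes of the hemidesmosome and of its laminin ligand were followed through 3 sorted cell populations of the mouse main olfactory epithelium, taken at an age of 4 weeks. The 8 genes were chosen by name, as Trp63, Itga6, Itgb4, Lama3, Lamb3, Col17a1, Dst and Cd151, and all 8 were among the 21909 gene symbols of the deposited tables. The populations were anti-CD54-PE positive cells, titled HBC (horizontal basal cells), Neurog1-EGFP positive cells, titled GBC (globose basal cells), and OMP-ires-EGFP positive cells, titled mOSN (mature olfactory sensory neurons). CD54 is the surface protein encoded by Icam1 and is also carried by other cells such as leukocytes, Neurog1 is a proneural transcription factor, and OMP is the olfactory marker protein. The GBC and mOSN gates followed a green fluorescent protein reporter, so a cell that still holds the reporter protein after its gene is turned off is collected too. With 1 poly-A RNA library from each population, the differences are those between libraries, without replicates and without p-values. ScriptSeq was the kit for HBC, and the Illumina mRNA kit served GBC and mOSN, so that kit and population cannot be told apart in any comparison with HBC. In sorted bulk RNA, fewer cells of a type and less RNA per cell cannot be told apart either.

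The olfactory epithelium is renewed throughout life, and its horizontal basal cells form a flat layer of reserve stem cells on the basal lamina. The transcription factor p63, the product of Trp63, marks this layer and is known to hold it in the reserve state, and its loss releases the cells into differentiation. Hemidesmosomes are the adhesion plates of such basal cells. In them the integrin chains alpha 6 (Itga6) and beta 4 (Itgb4) cross the membrane together with collagen XVII (Col17a1) and the tetraspanin CD151. The plakins plectin (Plec) and dystonin (Dst) tie these proteins to keratin filaments inside the cell, and laminin-332, a heterotrimer that holds the products of Lama3 and Lamb3, is bound on the outside.

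The RefSeq promoter table (GRCm38.p6) held windows for 4 of the 8 genes, with 7 gene starts. The 250 bases before a start are shown for the genes whose levels are contrasted below, namely Col17a1 and Lamb3, which were low outside HBC, Cd151, which was intermediate, and Dst, which was high in all 3 libraries. Capitals mark matches to the GC box (GGGCGG) or to the p53 family decamer, each searched on both strands. The windows lie at chr19:47692043-47692292 (minus strand) for Col17a1, chr1:193301744-193301993 (plus strand, first start) for Lamb3, chr7:141467112-141467361 (plus strand, first start) for Cd151, and chr1:34011345-34011594 and chr1:34160010-34160259 (plus strand) for the first and the second start of Dst.
Col17a1: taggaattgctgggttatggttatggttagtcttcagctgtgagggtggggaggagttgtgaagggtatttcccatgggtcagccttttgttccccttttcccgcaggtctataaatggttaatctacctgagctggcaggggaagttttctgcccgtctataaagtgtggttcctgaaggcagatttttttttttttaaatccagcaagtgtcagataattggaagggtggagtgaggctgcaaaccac
Lamb3: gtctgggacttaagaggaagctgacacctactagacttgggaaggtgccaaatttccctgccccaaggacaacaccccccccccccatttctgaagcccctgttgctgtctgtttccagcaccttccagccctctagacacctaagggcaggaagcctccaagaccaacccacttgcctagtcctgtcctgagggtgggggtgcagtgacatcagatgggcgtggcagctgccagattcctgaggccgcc
Cd151: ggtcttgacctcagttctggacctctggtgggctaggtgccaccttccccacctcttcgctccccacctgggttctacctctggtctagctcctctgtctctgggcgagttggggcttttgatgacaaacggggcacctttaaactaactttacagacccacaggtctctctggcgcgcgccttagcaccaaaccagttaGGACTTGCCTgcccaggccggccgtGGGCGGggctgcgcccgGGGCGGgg
Dst, first start: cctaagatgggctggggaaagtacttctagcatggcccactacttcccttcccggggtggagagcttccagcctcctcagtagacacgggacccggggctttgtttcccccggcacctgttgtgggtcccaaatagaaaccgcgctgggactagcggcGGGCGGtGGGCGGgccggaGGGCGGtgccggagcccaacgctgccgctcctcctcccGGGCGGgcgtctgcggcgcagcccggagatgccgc
Dst, second start: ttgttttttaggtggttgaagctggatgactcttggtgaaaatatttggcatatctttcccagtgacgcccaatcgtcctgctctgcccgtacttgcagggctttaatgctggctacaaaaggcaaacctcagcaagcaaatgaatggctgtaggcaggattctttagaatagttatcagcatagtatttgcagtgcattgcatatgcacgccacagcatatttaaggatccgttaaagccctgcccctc

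The windows differed in base composition. G and C made up 68.8% of the bases at the first start of Dst and 62.4% at that of Cd151. They made up 58.8% at the first start of Lamb3 and 46.0% in Col17a1, with a median of 52.4% over all 32851 windows of the table. The second start of Dst lies 148665 bases downstream of the first and had 45.2%. The GC box was found 4 times at the first start of Dst and 2 times in Cd151, and in none of the other 3 windows shown, while 32.7% of all windows held it. The p53 family decamer was found in Cd151, 50 bases before the start, and in no other window shown. It was present in 7.13% of all windows. The AP-1 motif (TGANTCA, in 6.75% of all windows) and the TEAD motif (GGAATG, in 12.6%) had no match in the 5 windows shown. Of the 2 windows not shown, the second start of Lamb3 held a TEAD match 167 bases before the start and that of Cd151 held none of these motifs. No matches of different motifs overlapped. These matches describe letters in the windows, and nothing was measured there on protein binding.

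The tables give FPKM, fragments per kilobase of transcript scaled to the number of mapped fragments, with the lower and upper bound that the authors' software put around it. Fragments implied by those bounds summed to between 16516700 and 18123443 per library. Leaving out Trp63 and the sort gene Icam1, 8 of 8 markers of horizontal basal cells reached 5 FPKM in HBC (9.76 to 451 FPKM), 0 in GBC and 1 in mOSN (Aqp3). Markers of globose basal cells, the reporter gene Neurog1 included, summed to 425 FPKM in GBC and markers of mature neurons, the reporter gene Omp included, to 8810 FPKM in mOSN, above their sums in the other libraries. The HBC library also carried markers of other cell types. Its 14 macrophage and monocyte markers summed to 3967 FPKM, against 5.39 in GBC and 4.14 in mOSN, and all 14 lay between 43.0 and 1228 FPKM in HBC. Sustentacular cell markers summed to 1089 FPKM in HBC, against 46.8 in GBC and 180 in mOSN. The highest of them had 881 FPKM in HBC, and their median was 17.1 in HBC and 18.7 in mOSN. In HBC, Bowman gland markers summed to 205 FPKM, fibroblast and smooth muscle markers to 148, neutrophil markers to 122 and lymphocyte markers to 77.0. The part of these cells in the values below was not tested. Endothelial cells and glia also build laminin-binding integrins. The 9 endothelial markers lay between 0.801 and 4.805 FPKM in HBC, and none reached 5. The 11 glial and Schwann cell markers summed to 33.4 FPKM in HBC against 16.3 in GBC and 10.3 in mOSN, with 3 of 11 at 5 FPKM or more in HBC. Of the 11, Sox10 and Foxd3 were both under 1 FPKM in every library. The highest of the 11 stood at 13.7 FPKM for the GBC library, at 11.6 for the HBC library and at 6.42 for that of mOSN. The part of glia in the values below was not tested either.

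Trp63 was high in HBC and near 0 in GBC and mOSN. The gene (chromosome 16, 25683851 to 25892174, mm9) had 49.2 FPKM in HBC (deposited interval 48.0 to 50.4), 0.161 in GBC (0.0542 to 0.268) and 0.297 in mOSN (0.177 to 0.416). HBC stood alone, and the GBC and mOSN intervals overlapped. The HBC level was 306-fold that of GBC, with 180- to 929-fold from the interval ends, and 166-fold that of mOSN (115- to 285-fold). The HBC value rested on 7143 implied fragments, that of GBC on 9 and that of mOSN on 25. In HBC, 97.7% of all genes had a lower FPKM than Trp63. The row covers the whole locus, so that the long and the N-terminally truncated forms of p63 are not told apart.

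The integrin chains of the hemidesmosome followed Trp63, Itgb4 more closely than Itga6. Itgb4 (chromosome 11, 115836039 to 115869725) had 52.8 FPKM in HBC (51.6 to 54.1), 0.0943 in GBC (0.0607 to 0.128) and 0.268 in mOSN (0.191 to 0.345). Beta 4 is known to pair with alpha 6 alone. Itga6 (chromosome 2, 71625140 to 71694815) had 21.6 FPKM in HBC (20.9 to 22.2), 0.993 in GBC (0.823 to 1.16) and 0.333 in mOSN (0.222 to 0.444). Both were highest in HBC, but they differed in the order of the other 2 libraries, with Itgb4 lower in GBC than in mOSN and Itga6 higher, without overlap of the intervals in either case. The HBC level was 560-fold that of GBC for Itgb4 (404- to 891-fold) and 21.7-fold for Itga6 (18.0- to 27.0-fold). Against mOSN it was 197-fold for Itgb4 (150- to 283-fold) and 64.8-fold for Itga6 (47.1- to 100.2-fold). The fragments behind 1 FPKM of Itgb4 numbered 146 in HBC and 333 in GBC. With 1 conversion factor, the same number of fragments per FPKM of a gene in each library, its log2 ratio, with 1 FPKM added, was 4.79 in place of 5.62 against GBC and 4.59 in place of 5.41 against mOSN.

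Per transcript length, Itgb4 stood at 2.45 times the FPKM of Itga6 in HBC, at 0.0950 times in GBC and at 0.804 times in mOSN. The balance between these chains was therefore reversed in GBC. Itgb1, the beta 1 chain that also pairs with alpha 6 and with alpha 3, had 78.6 FPKM in HBC (77.5 to 79.7), 10.4 in GBC (9.94 to 10.96) and 9.54 in mOSN (8.90 to 10.2). It exceeded Itgb4 by 1.49 times in HBC, 111 times in GBC and 35.6 times in mOSN. Itga3, whose product binds laminin-332 with beta 1 outside hemidesmosomes, had 20.2 FPKM in HBC against 5.54 in GBC and 4.95 in mOSN, and the last 2 intervals overlapped. Macrophages and lymphocytes also carry beta 1 integrins, and markers of both were present in the HBC library.

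Cd151, the tetraspanin that binds alpha 3 and alpha 6 integrins, was intermediate in GBC. It (chromosome 7, 148653261 to 148657380) had 40.1 FPKM in HBC (38.4 to 41.8), 5.77 in GBC (5.14 to 6.403) and 1.85 in mOSN (1.42 to 2.29). No intervals overlapped. The HBC level was 6.95-fold that of GBC (5.998- to 8.13-fold) and 21.7-fold that of mOSN (16.8- to 29.5-fold). The mOSN value rested on 72 implied fragments.

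Collagen XVII, the transmembrane collagen known as a basal stem cell protein of skin, had a profile close to that of Itgb4. Col17a1 (chromosome 19, 47720831 to 47766532) had 57.1 FPKM in HBC (55.9 to 58.4), 0.175 in GBC (0.124 to 0.227) and 0.183 in mOSN (0.117 to 0.249). The GBC and mOSN values were indistinguishable by their intervals. Col17a1 was 326-fold higher in HBC than in GBC (246- to 472-fold) and 312-fold higher than in mOSN (225- to 498-fold). The log2 ratio to GBC was 5.63, and 4.94 with 1 conversion factor, and that to mOSN was 5.62 and 4.95.

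Dst was the exception among the 8 genes. Dystonin (chromosome 1, 34068670 to 34365497) had 27.1 FPKM in HBC (26.7 to 27.4), 13.1 in GBC (12.9 to 13.4) and 24.9 in mOSN (24.5 to 25.4). All 3 libraries were high, with HBC and mOSN close together and GBC lowest. The HBC level was 2.06-fold that of GBC (1.99- to 2.13-fold) and 1.09-fold that of mOSN (1.05- to 1.12-fold), and the log2 ratio between HBC and mOSN was 0.12 as deposited. The counting error of Dst was the smallest of the 8 genes, with 20829 implied fragments behind the HBC value, 8223 behind that of GBC and 12779 behind that of mOSN. The locus is known to make an epithelial form that sits in hemidesmosomes and longer forms in neurons and muscle, and mice without Dst lose sensory neurons. The deposited row sums the locus, so which form was present in which library was not measured.

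The other plakin of the hemidesmosome did not share the profile of Dst. Plec had 42.5 FPKM in HBC (41.8 to 43.3), 0.733 in GBC (0.680 to 0.786) and 0.269 in mOSN (0.221 to 0.316). Dst stood at 0.636 times Plec in HBC, 17.9 times in GBC and 92.8 times in mOSN. Macf1, the plakin most similar to the long forms of Dst and a linker of actin and microtubules that was picked after its values were seen, had 27.2 FPKM in HBC against 35.6 in GBC and 70.4 in mOSN. The desmosomal plakin Dsp had 65.9, 11.6 and 3.13 FPKM in the same order. Ppl (7.15, 14.5 and 13.9 FPKM), which encodes periplakin of the cornified envelope, was higher in GBC and mOSN than in HBC but short of a 4-fold difference. Evpl, its partner envoplakin, had 5.67, 0.469 and 1.05 FPKM, and Eppk1, epiplakin, had 6.82, 0.0556 and 0.0222 FPKM.

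The 2 laminin-332 chains followed here were unequal in every library. Lamb3 (chromosome 1, 195128188 to 195170072), the beta chain found in this laminin, had 67.6 FPKM in HBC (66.0 to 69.2), 0.103 in GBC (0.0546 to 0.152) and 0.178 in mOSN (0.1004 to 0.256). It was the highest of the 8 genes in HBC, and the intervals of GBC and mOSN overlapped. Lamb3 was 655-fold higher in HBC than in GBC (435- to 1268-fold) and 379-fold higher than in mOSN (258- to 689-fold). The log2 ratio to GBC was 5.96, and 5.37 with 1 conversion factor, and that to mOSN was 5.86 and 5.27.

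Lama3, the alpha chain that carries the integrin-binding end, was the lowest of the 8 genes in HBC. It (chromosome 18, 12492533 to 12741521) had 6.88 FPKM in HBC (6.61 to 7.14), 2.42 in GBC (2.25 to 2.58) and 0.395 in mOSN (0.319 to 0.471). The 3 libraries were ordered without overlap, and the GBC value rested on 855 implied fragments. The HBC level was 2.85-fold that of GBC (2.56- to 3.17-fold) and 17.4-fold that of mOSN (14.0- to 22.4-fold). Lama3 and Lamb3, whose products are secreted in 1 heterotrimer, therefore differed in GBC, where Lama3 was at 35.1% of its HBC level and Lamb3 at 0.153%.

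Per length, Lamb3 stood at 9.83 times Lama3 in HBC. In GBC the order was turned over, with Lamb3 at 0.0427 times Lama3, and in mOSN it stood at 0.451 times. Lama3 is known to make a short and a long form, and the value of the row depends on the transcript length assigned to it.

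**Figure D1:**
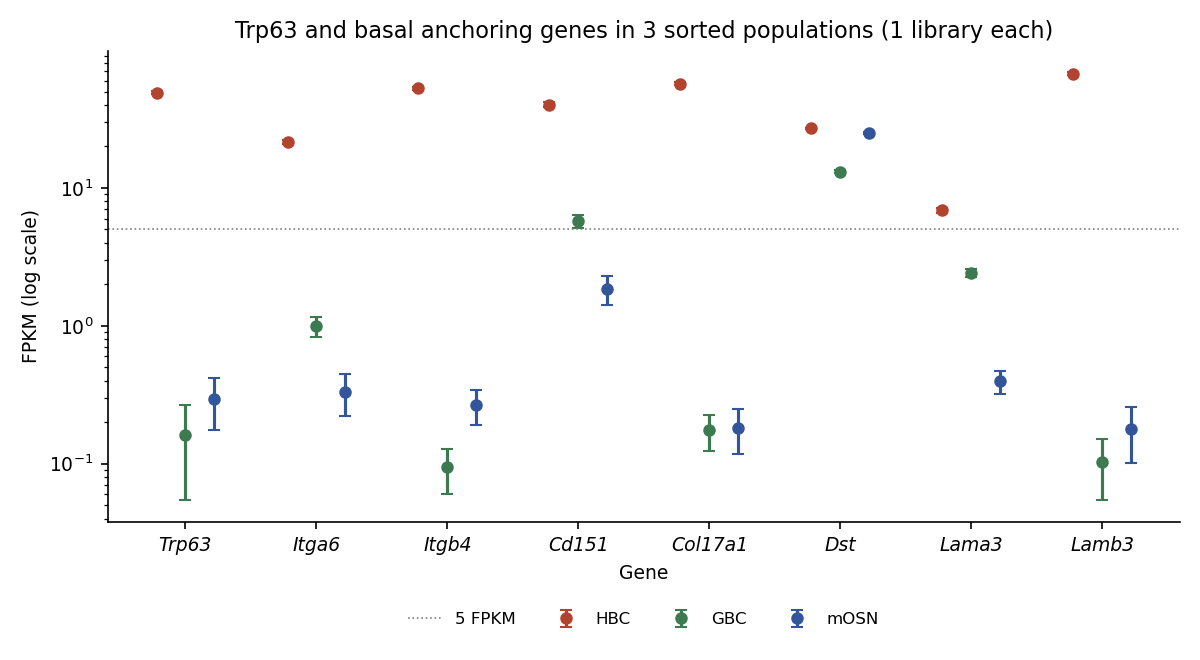
FPKM (log axis) of Trp63 and the 7 anchoring genes in the HBC, GBC and mOSN libraries, 1 library each. Points are the deposited values and bars the deposited intervals, which cover counting error only. Dst lies between 13.1 and 27.1 FPKM in all 3 libraries, while Trp63, Itgb4, Col17a1 and Lamb3 lie under 0.3 FPKM in GBC and mOSN.

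The call for a gene required that log2((FPKM + 1)/(FPKM + 1)) reached 2, a 4-fold difference, and that the library with the higher level had at least 5 FPKM. Between HBC and GBC, 6 of the 8 genes were called higher in HBC and 0 in GBC, where 16.5% and 15.5% of all 9101 genes tested were. Only Dst and Cd151 reached 5 FPKM in GBC, so the other genes could not be called higher there. Lama3 and Dst were not called. The median log2 ratio of the 8 genes was 4.47, from 0.99 (Dst) to 5.96 (Lamb3), though with 1 conversion factor Trp63 had the highest, at 5.94, and that of all genes tested was -0.51. Between HBC and mOSN, 7 of 8 were called higher in HBC and 0 in mOSN, against 15.8% and 24.0% of 9779 genes. Only Dst reached 5 FPKM in mOSN, so the other genes could not be called higher there. Dst was not called, and the median was 4.68 against -0.79 over all genes tested. These 2 comparisons share the HBC library. Lama3 was not called there when the pseudocount was 5 FPKM or the floor 20 FPKM.

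Between mOSN and GBC, the libraries made with the same kit, Dst and Cd151 reached 5 FPKM and could be tested, and 0 of these 2 were called. Over 8678 genes, 7.12% were called higher in mOSN and 3.16% in GBC. Dst was 1.90-fold higher in mOSN (1.82- to 1.97-fold), a log2 ratio of 0.87, where the median of all genes tested was 0.29. Cd151 was lower in mOSN, at 0.321 times its GBC level (0.221 to 0.445 times). The 6 genes below the floor split. Itga6 and Lama3 were lower in mOSN, at 0.335 and 0.164 times GBC, Itgb4 was higher at 2.84 times, and for Trp63, Col17a1 and Lamb3 the intervals overlapped. On the scale where each library was brought to a common sum, Lama3 was called higher in GBC, with a log2 ratio of -2.41 in place of -1.29.

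The level left outside HBC separated the genes. For comparison, the basal keratin genes Krt5 and Krt14 were in GBC at 0.147% and 0.0881% of their HBC level and in mOSN at 0.351% and 0.125%, and Icam1, the gene of the HBC sort, at 0.0335% and 0.256%. Lamb3 (0.153% in GBC and 0.264% in mOSN), Itgb4 (0.178% and 0.507%), Col17a1 (0.307% and 0.320%) and Trp63 (0.327% and 0.603%) were all under 1%. Itga6 was at 4.60% and 1.54%, Cd151 at 14.4% and 4.62%, Lama3 at 35.1% and 5.74%, and Dst at 48.6% and 92.0%. Itga6, Cd151 and Lama3 were each higher in GBC than in mOSN, Dst was the reverse, and the 4 lowest genes had values under 0.3 FPKM in both. Whether the small values in GBC and mOSN come from a few basal cells in the sort was not tested.

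**Figure D2:**
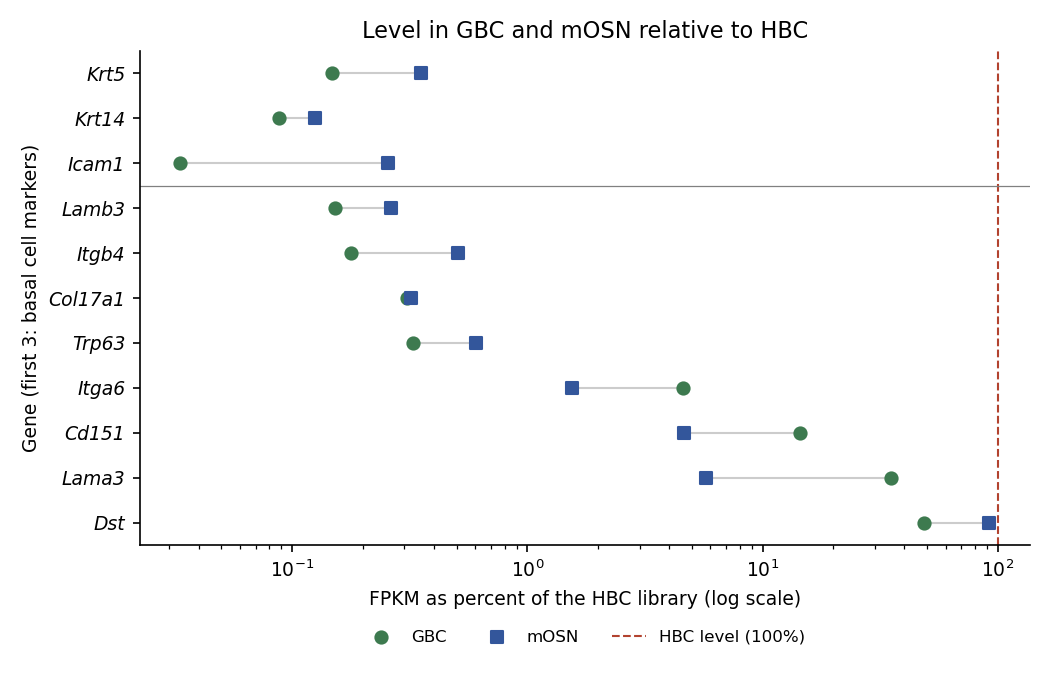
FPKM in GBC (circles) and mOSN (squares) as a percent of the HBC value of the same gene, on a log axis. The first 3 rows are basal cell markers and the others Trp63 and the anchoring genes. Lamb3, Itgb4, Col17a1 and Trp63 lie under 1% and Dst at 48.6% and 92.0%.

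Since FPKM is scaled to length, the levels can be ordered within a library. In HBC the order was Lamb3, Col17a1, Itgb4, Trp63, Cd151, Dst, Itga6 and Lama3, and none of the 7 neighbouring pairs had overlapping intervals. In GBC it was Dst, Cd151, Lama3, Itga6, Col17a1, Trp63, Lamb3 and Itgb4, and the last 4 genes could not be ordered, since 3 of 7 neighbouring pairs overlapped. In mOSN it was Dst, Cd151, Lama3, Itga6, Trp63, Itgb4, Col17a1 and Lamb3, with overlap in 5 of 7 pairs, all below Cd151. By their values, Dst, Cd151, Lama3 and Itga6 were thus the 4 highest of the 8 genes in GBC and in mOSN and the 4 lowest in HBC. These intervals leave out the error of the length that the software assigned to a gene.

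The HBC value of the 8 genes was set beside their direct partners and relatives. For the list counts below, 16.5% of all genes tested were called higher in HBC than in GBC and 15.5% the reverse. Between HBC and mOSN, 15.8% were called higher in HBC and 24.0% in mOSN. Of 8 partners of the hemidesmosome and of laminin-332, 7 were called higher in HBC than in GBC and 7 higher than in mOSN, with a median log2 ratio of 3.79 and 4.04, and Itga3 was not called in either. The basal keratins that hemidesmosomes anchor led them, with Krt14 at 451 FPKM in HBC against 0.397 in GBC and 0.565 in mOSN, Krt5 at 334, 0.493 and 1.17 FPKM, and Krt15 at 65.8, 0.144 and 0.0215 FPKM. Of the 8 laminin chains outside laminin-332, 3 reached 5 FPKM, in HBC alone, and 2 of them were called higher in HBC than in GBC and than in mOSN. These were Lamb2 (9.71 FPKM in HBC against 0.682 in GBC and 0.191 in mOSN) and Lama5 (7.996, 0.496 and 0.148 FPKM), whereas Lamc1, the commonest gamma chain, had 8.49, 2.71 and 2.55 FPKM. Lamb3 was thus the laminin chain with the highest FPKM in HBC. In GBC the intervals of Lamc1 (2.54 to 2.89 FPKM) and Lama3 overlapped, so that these chains could not be ordered.

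Of the 17 other basement membrane genes, 8 could be tested between HBC and GBC, and 5 were higher in HBC and 0 in GBC (median 2.81). All 8 reached 5 FPKM in HBC but 3 did in GBC, so the others could not be called higher there. Bcam, a receptor for laminin alpha 5, had 84.2 FPKM in HBC against 1.58 in GBC and 2.58 in mOSN. Npnt, the integrin ligand nephronectin, had 9.89, 0.440 and 0.322 FPKM. Col4a2 (11.1, 0.144 and 0.618 FPKM) and Hspg2, perlecan (9.22, 0.369 and 0.136 FPKM), are structural parts of the lamina that fibroblasts and endothelial cells make too, and markers of the former were in the HBC library, with Dcn at 62.1 FPKM. Agrn, the proteoglycan agrin, picked after its values were seen, went the other way, with 35.8, 80.4 and 15.3 FPKM, and was called higher in GBC than in mOSN. Col18a1, picked likewise, had 5.92 FPKM in HBC and 6.197 in GBC, with overlapping intervals. Of 6 other integrin genes tested, 6 were called higher in HBC than in GBC and 6 higher than in mOSN. Over all genes tested the shares were 16.5% and 15.8%. All 6 reached 5 FPKM in HBC alone, so that none could be called higher in GBC or mOSN. Itgb5 led with 55.1 FPKM in HBC against 0.424 in GBC and 0.502 in mOSN. Itga4 (23.2, 0.615 and 4.25 FPKM) and Itgb7 (21.5, 0.0862 and 0.277 FPKM) encode integrins known from leukocytes, and the macrophage markers stood high in that library, while the 9 lymphocyte markers lay between 3.39 and 21.2 FPKM. Itga5, the fibronectin receptor chain, had 11.8, 0.0384 and 0.0233 FPKM.

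**Figure D3:**
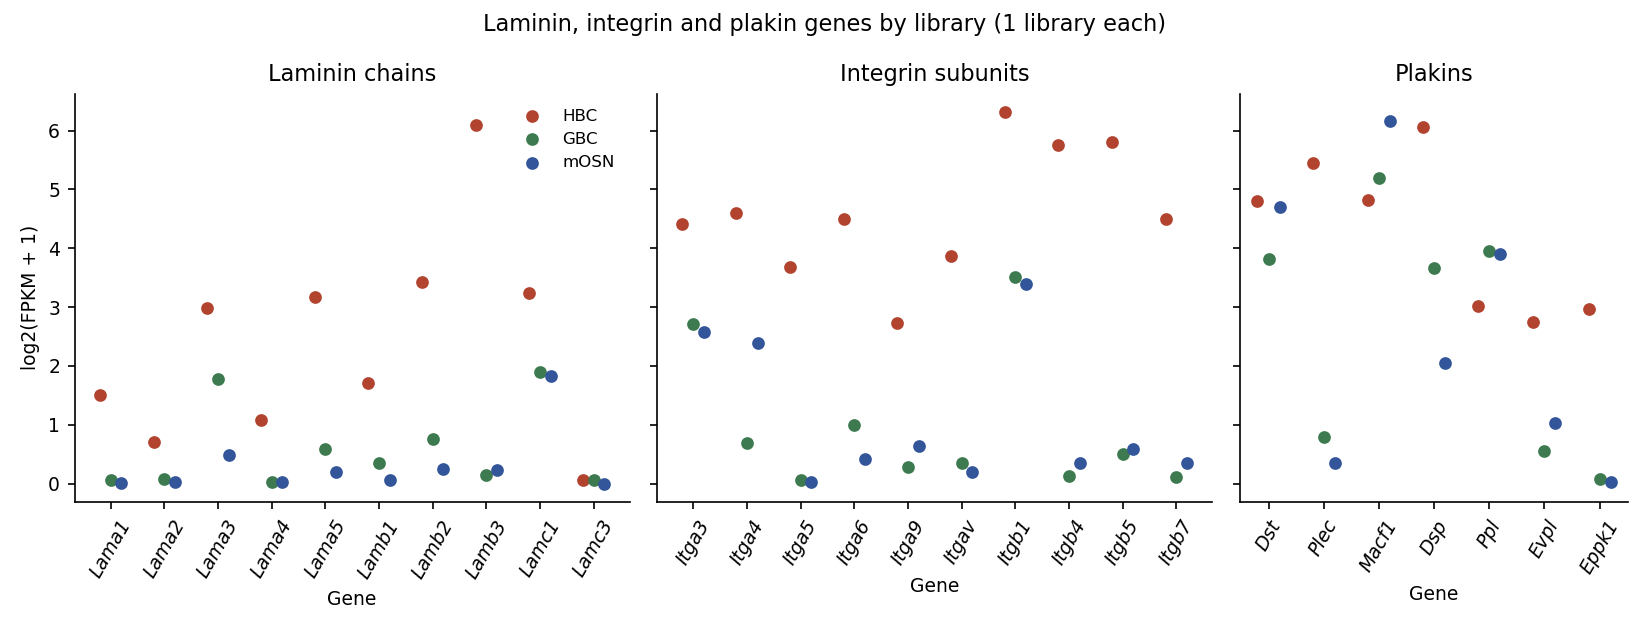
Levels as log2(FPKM + 1) of laminin chains, of the integrin subunits that reached 5 FPKM in any library among those listed, and of plakins in the HBC, GBC and mOSN libraries, 1 library each. Lamb3 is the highest laminin chain in HBC, Itgb1 the highest integrin in all 3 libraries, and Macf1 and Dst the highest plakins in mOSN.

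Trp63 was compared with the rest of its family. Trp53 had 11.4 FPKM in HBC (10.5 to 12.4), 9.72 in GBC (8.93 to 10.5) and 1.92 in mOSN (1.501 to 2.33). Its HBC and GBC intervals overlapped. Trp73, the member with known roles in multiciliated cells and neurons, had 1.44, 1.12 and 0.179 FPKM, and its HBC and GBC intervals overlapped as well. Trp63 was thus the family member with the highest FPKM in HBC, with Trp53 at 0.233 times its level there and 60.4 times in GBC. Of the 4 tested among 6 relatives and partners of p63, 0 were called between HBC and GBC, and 1 was called higher in HBC than in mOSN (Trp53). Ppp1r13l, an inhibitor of p53 family proteins, had 8.33, 2.499 and 1.85 FPKM, Itch, a ubiquitin ligase of p63, had 12.9, 7.99 and 15.5 FPKM, and Mdm2 had 15.0, 15.1 and 21.0 FPKM.

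Genes reported as p63 targets in stratified epithelia were mostly, but not all, high in HBC. Of 18, 16 could be tested in each comparison, and 10 were called higher in HBC than in GBC and 11 higher than in mOSN, with 0 in the other direction. All 16 reached 5 FPKM in HBC, but 5 did in GBC and 4 in mOSN, so the others could not be called higher there. Over all genes tested, 16.5% and 15.8% were called higher in HBC. The medians of the listed genes were 3.59 and 3.54. Sfn, the 14-3-3 sigma gene, had 297 FPKM in HBC against 0.745 in GBC and 4.68 in mOSN. Krt17, a stress keratin, had 286, 0.478 and 0.508 FPKM. Perp, a desmosomal target of p63, had 87.8, 0.672 and 1.58 FPKM, and Fgfr2, an epithelial growth factor receptor, had 30.1, 0.0584 and 0.0589 FPKM. Among the 6 not called between HBC and GBC, picked after their values were seen, Ripk4 had 10.1, 15.8 and 10.2 FPKM and Cdkn1a had 50.3, 44.2 and 41.3 FPKM.

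The 6 genes whose levels were most like Trp63 were found by Euclidean distance over log2(FPKM + 1) in the 3 libraries, among 21908 other genes. Those named here are Pltp, a lipid transfer protein (47.8 FPKM in HBC against 0.227 in GBC and 0.326 in mOSN, distance 0.0964), Itgb4 (distance 0.136), Ctsh, a lysosomal protease (0.142), Tgfbr2, a TGF-beta receptor (0.145), and Ccrl2, a chemokine receptor-like gene (0.157). Col17a1 ranked 12, Lamb3 53, Itga6 307, Cd151 1112, Lama3 1388 and Dst 15981. By distance over the 2 log2 ratios to HBC, 3 of the 6 recurred (Tgfbr2, Ctsh and Ccrl2) and Itgb4 ranked 16. A profile over 3 libraries did not set basal genes apart from those of macrophages, since Itgam ranked 17 and Cx3cr1 26. Nearer to Trp63 than Lamb3 were 3 of 14 macrophage markers and 0 of 9 other basal cell markers. The cut at Lamb3 came from the same ranking, and the macrophage marker Aif1 at 66 and Krt15 at 70 followed it. The distance also depends on the HBC level, with Krt14 (451 FPKM) at rank 1505 and the macrophage marker Cd74 (1228 FPKM) at 4841.

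**Figure D4:**
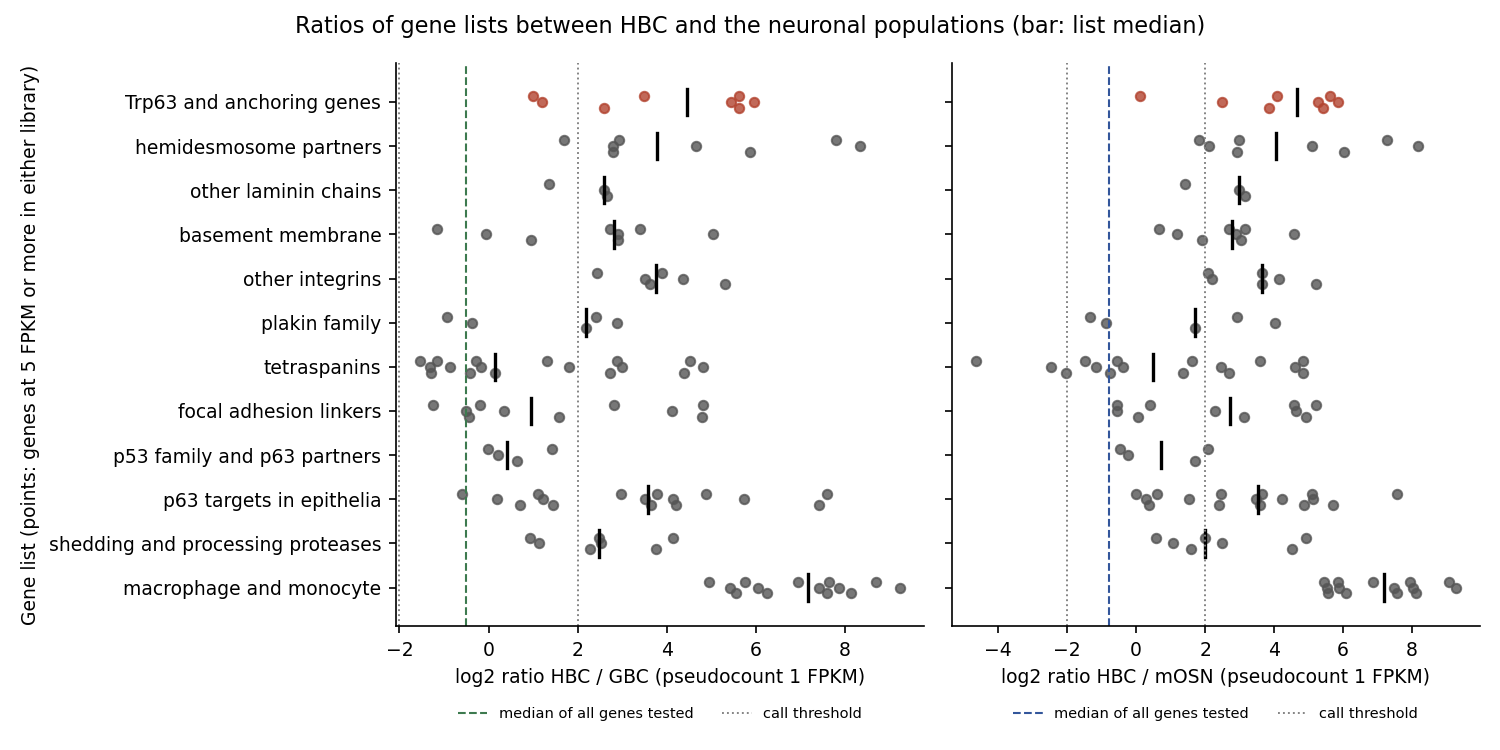
Log2 ratios of HBC to GBC (left) and of HBC to mOSN (right) for genes with at least 5 FPKM in either library, by gene list. Points are genes, black bars list medians, dashed lines the median of all genes tested and dotted lines the 4-fold threshold. The median of Trp63 and the anchoring genes is 4.47 and 4.68, and macrophage markers, at 7.18 and 7.17, lie farther to the right.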

How the data were processed

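Poly-A RNA of 3 sorted populations was analysed, 1 library each, grouped by sample title. The 3 samples of 5-hydroxymethylcytosine and 3 of 5-methylcytosine were not analysed here. Per the file headers, the values deposited by the authors are FPKM per gene, each with an interval and a status. Bowtie, TopHat, Cufflinks and the build mm9 appear in the submitters' processing notes. The annotation was not given in the sources used here.

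The 22345 rows of each table stood for 21909 symbols, and rows of 1 symbol were added up. All 8 genes had 1 row with status OK in each library. Starts were raised by 1 to count from 1. Implied fragments are the squared quotient of 2 times the FPKM and the distance from it to an interval end. Intervals cover counting error only and not the spread between animals or preparations. PCR copies are not independent molecules, so intervals that count them as such are too narrow. Ranges of a fold come from opposite interval ends. Log2 ratios used a pseudocount of 1 FPKM, which understates changes of low genes.

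The genes and the 10 pathway and 14 marker lists were chosen with earlier results of these data known. Of 248 list symbols, 247 matched, 3 through synonyms. Named were the 8 genes, direct partners and family, up to 4 per pathway list with the largest absolute ratio between HBC and GBC, and the 6 genes nearest to Trp63. Some genes that this rule or the lists hold are not reported here. Promoter windows of the 8 genes were RefSeq's, leaving out chromosome 18, and were searched in Python 3.11.15 with pandas 2.3.3. The alternatives were other pseudocounts, floors, scalings, rows and interval rules.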

Additional observations from a re-analysis of the deposited data

How the results depend on the processing

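Each count of called genes was recomputed under 10 alternatives. Of 60 recomputed counts, 59 stayed within 1.5 times the reported one. The exception was mOSN against GBC with libraries brought to a common sum, where 1 gene (Lama3) was called higher in GBC, with a log2 ratio of mOSN to GBC of -2.41 in place of -1.29. Without a floor 0 were called. HBC against GBC had the same 6 genes under each alternative, and HBC against mOSN had 6 in place of 7 with a pseudocount of 5 FPKM or a floor of 20 FPKM, without Lama3 in both cases. Of 216 recomputed log2 ratios, 3 had the other sign, all of Col17a1 between mOSN and GBC (reported 0.01, lowest -0.15). The ratio of Trp63 between HBC and GBC ranged from 3.39 to 7.56 and that of Dst between HBC and mOSN from 0.03 to 0.69. With 1 conversion factor from fragments to FPKM per gene, the HBC to GBC ratio was 5.94 for Trp63 (reported 5.43) and 4.79 for Itgb4 (reported 5.62). The fragments behind 1 FPKM were 145 in HBC and 56.6 in GBC for Trp63, and 146 and 333 for Itgb4, and the cause was not tested.

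Median-of-ratios scaling moved the median of all genes from -0.51 to 0.06 (HBC against GBC) and from -0.79 to -0.12 (HBC against mOSN), and the common sum moved mOSN against GBC from 0.29 to -0.11. The share of calls higher in the first library went from 51.6% to 65.2%, from 39.7% to 54.1% and from 69.3% to 45.7% in these cases, and from 39.7% to 50.7% for HBC against mOSN with the common sum. Over all genes, the counts higher in HBC and in GBC were 1503 and 1410 as reported, 643 and 504 with a pseudocount of 5 FPKM, 638 and 663 with a floor of 20 FPKM and 2753 and 2771 with the common sum. For HBC and mOSN they were 1549 and 2351, against 645 and 918, 632 and 1143, and 3146 and 3054 in the same order. For mOSN and GBC they were 618 and 274, against 173 and 88, 305 and 109, and 805 and 957. The last comparison had 846 and 412 with 1 conversion factor per gene. No paired analysis was possible because each population had 1 library. Depth limits Trp63, Itgb4, Lamb3 and Col17a1 in GBC and mOSN, where 9 to 48 implied fragments stood behind a value. It also limits Itga6 in mOSN, with 36 implied fragments.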

Other observations

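Other adhesion genes, counted from lists, did not share 1 profile. Of 26 tetraspanin genes, 17 could be tested between HBC and GBC, and 6 were called higher in HBC and 0 in GBC. In GBC, 10 of the 26 genes reached 5 FPKM, so the others could not be called higher there. Cd53 (29.2 FPKM in HBC against 0.0689 in GBC and 0.0483 in mOSN) and Cd37 (27.4, 0.226 and 0 FPKM), which are known from leukocytes, led the genes called higher in HBC, followed by Upk1b (26.04, 0.293 and 0.104 FPKM) and Tspan4 (10.2, 0.394 and 1.04 FPKM). Against mOSN, 6 of 16 were higher in HBC and 3 in mOSN. Over all genes tested, 15.8% and 24.0% were, and against GBC 16.5% were higher in HBC and 15.5% in GBC. Cd9 and Cd81, relatives of Cd151 picked after their values were seen, ran opposite to it, with 95.3, 107 and 161 FPKM for Cd9 and 76.9, 93.5 and 218 FPKM for Cd81 in HBC, GBC and mOSN. Cd9 thus stood at 2.38 times Cd151 in HBC and 87.2 times in mOSN.

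Of 10 focal adhesion linkers tested, 4 were called higher in HBC than in GBC and 6 higher than in mOSN. The shares over all genes tested were 16.5% and 15.8%. Tln1, talin, had 63.5 FPKM in HBC against 2.70 in GBC and 1.71 in mOSN, Zyx, zyxin, had 47.5, 0.709 and 0.295 FPKM, Pxn, paxillin, had 25.9, 2.84 and 2.07 FPKM, and Fermt3, the kindlin of blood cells, had 37.8, 0.397 and 0.281 FPKM. Of 7 proteases that shed or process anchoring proteins, 5 were higher in HBC than in GBC and 3 higher than in mOSN. Mmp14 had 44.0, 2.31 and 0.483 FPKM and Plau, the urokinase gene, 29.9, 0.756 and 0.341 FPKM. Mmp9 had 5.57, 0.170 and 1.18 FPKM. Adam9, a sheddase of collagen XVII, had 25.5 FPKM in HBC against 3.57 in GBC and 16.7 in mOSN. Macrophages express several of these genes, and the part of macrophages in the values was not tested.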
